A study of Homo sapiens with 10 samples.

Results

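The transcripts of the translation initiation and elongation factors were compared in ST486 cells, an established human line from a Burkitt's lymphoma, with and without knockdown of the serine/threonine kinase STK38. The set was every gene with a symbol starting EIF1 to EIF6, EEF1, EEF2 or ETF1, leaving out the EIF2AK kinases, that was the only gene named for a probe set of the array. It held 43 genes on 55 probe sets, of 8226 genes named by such probe sets in all, and each gene is described by the probe set with the highest mean over all arrays. A further 8 probe sets list a factor of these families together with other genes and were not used here, so several factors, among them some of the best known, have no value below. One of the 43, EEF1AKMT3, is an enzyme that methylates the elongation factor EEF1A and entered only through its symbol.

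Cells were transduced with a lentivirus for 60 h, either with an STK38 shRNA (5 arrays) or with a non-target control shRNA (5 arrays). A short hairpin RNA (shRNA) directs the cell to degrade a matching mRNA. Both groups are the same line and both carry a lentiviral vector, and the STK38 group rests on 1 hairpin, so what the loss of STK38 did and what this hairpin did elsewhere cannot be told apart. The study was about STK38 and the activity of the transcription factor MYC in B cell lymphoma. Values are log2 expression per probe set on the Affymetrix HG-U95Av2 array. The labels do not say whether the replicates were separate cultures, so p-values measure only how much these arrays varied, possibly for technical reasons, and their number limits the precision.

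Translation begins when EIF2 brings the initiator tRNA to the small ribosomal subunit, EIF3 holds the factors on that subunit, and the EIF4F complex recruits it to the cap of the mRNA. EIF1, EIF1A and EIF5 then guard the choice of the start codon, EIF5B joins the large subunit, EEF1 delivers amino acids and EEF2 moves the ribosome along until ETF1 ends the chain. The pathway is known in Burkitt's lymphoma because MYC, which is translocated there, drives protein synthesis, and because the mTOR kinase controls cap binding through the EIF4E-binding proteins.

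The 3 STK38 probe sets and the 4 MYC probe sets were lower on every STK38 shRNA array than on every control array. The brightest STK38 probe set had a log2 fold change of -2.19 (standard error 0.14, adjusted p = 5.65e-08 by limma) and the brightest MYC probe set one of -1.38. Of 8 B cell markers measured, 7 were above background on all arrays, PAX5 on none; 0 of 6 T cell, 0 of 6 monocyte and 0 of 2 erythroid markers were above it on all arrays, and of 9 epithelial and stromal markers only KRT8 was. STK38 shRNA replicate 4 stood apart: its mean correlation to the rest of its group was 0.982, and theirs was 0.992 or 0.993. The summed level of the monocyte markers was 14.67 on that array and at most 12.79 on any control array. That of the epithelial and stromal markers was 21.67 against at most 19.67. The sum of the T cell markers, which were above background on no array, was also higher there, 9.5 against at most 8.88. The sums of the B cell markers (48.24) and the erythroid markers (3.2) were lower there than on any control array (at least 48.58 and 3.42). The median log2 value was 2.12 to 2.17 on the control arrays and 2.25 on that array. On that array ITGAM (3.49), S100A8 (2.77), S100A9 (2.73), KRT18 (2.81) and KRT19 (2.89) exceeded its background of 2.65. S100A8 and S100A9 also exceeded background on 1 control array each, and S100A9 on 2 STK38 shRNA arrays in all. CD14, LYZ, CSF1R and EPCAM did not exceed background on any array. The part of these signals in the results below was not tested.

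Translation factors moved in both directions with the STK38 shRNA. EIF3G, EIF2A, EIF2S2 and EIF4EBP1 fell 2.02-fold to 2.62-fold, EIF4E2 rose 2.18-fold and EIF4EBP2 1.71-fold. No elongation gene was called, but only 6 were tested, some of them dim, so this says little about elongation. Of the 43 genes, 40 passed the filter on low values (a mean log2 level of at least 1.93) and were tested. Of these, 7 rose and 11 fell at a limma adjusted p under 0.05, or 17.5% and 27.5%, where 14.1% of all 7535 probe sets tested were called higher and 15.8% lower. In all 18 of 40 (45.0%) were called, against 29.9% of all probe sets tested. With 1 probe set per gene, as for the factors, 31.0% of 5403 genes were called, 15.2% higher and 15.8% lower. A change of at least 2-fold was called for 5 factors, EIF2A, EIF3G, EIF2S2, EIF4EBP1 and EIF4E2, and for 4.23% of all probe sets tested. Bright probe sets were called more often in these data, and many of the factors are bright: at a mean log2 level of 7 or more, 13 of the 27 factors (48.1%) and 55.5% of all probe sets were called. The groups did not overlap for 14 factors (35.0%, against 22.1% of all probe sets tested and 23.0% of genes), and these 14 were all called. The median log2 fold change of the 40 was -0.10, beside 0.018 over all probe sets tested, and the median absolute change was 0.20 beside 0.18. Without STK38 shRNA replicate 4 there were 6 called higher and 10 lower, with 37.6% of all probe sets called (20.7% higher and 16.9% lower) and a median of -0.052 for the factors. EIF3H and EIF1 lost their calls without that array and the other 16 kept theirs. Among those 16 the log2 fold change moved to 0.88 for EIF4EBP2, -0.95 for EIF4EBP1, -1.30 for EIF3G, -0.45 for EIF5B, -0.30 for EIF2S3 and 0.36 for EIF3I. Among factors that were not called with or without it, EIF5 moved to 0.15, EIF2B4 to 0.064, EIF2B5 to 0.0018 and EIF4E to -0.049. The median over the factors of the difference from the control mean was -0.23 on that array and -0.049 to -0.0025 on the other STK38 shRNA arrays.

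**Figure D1:**
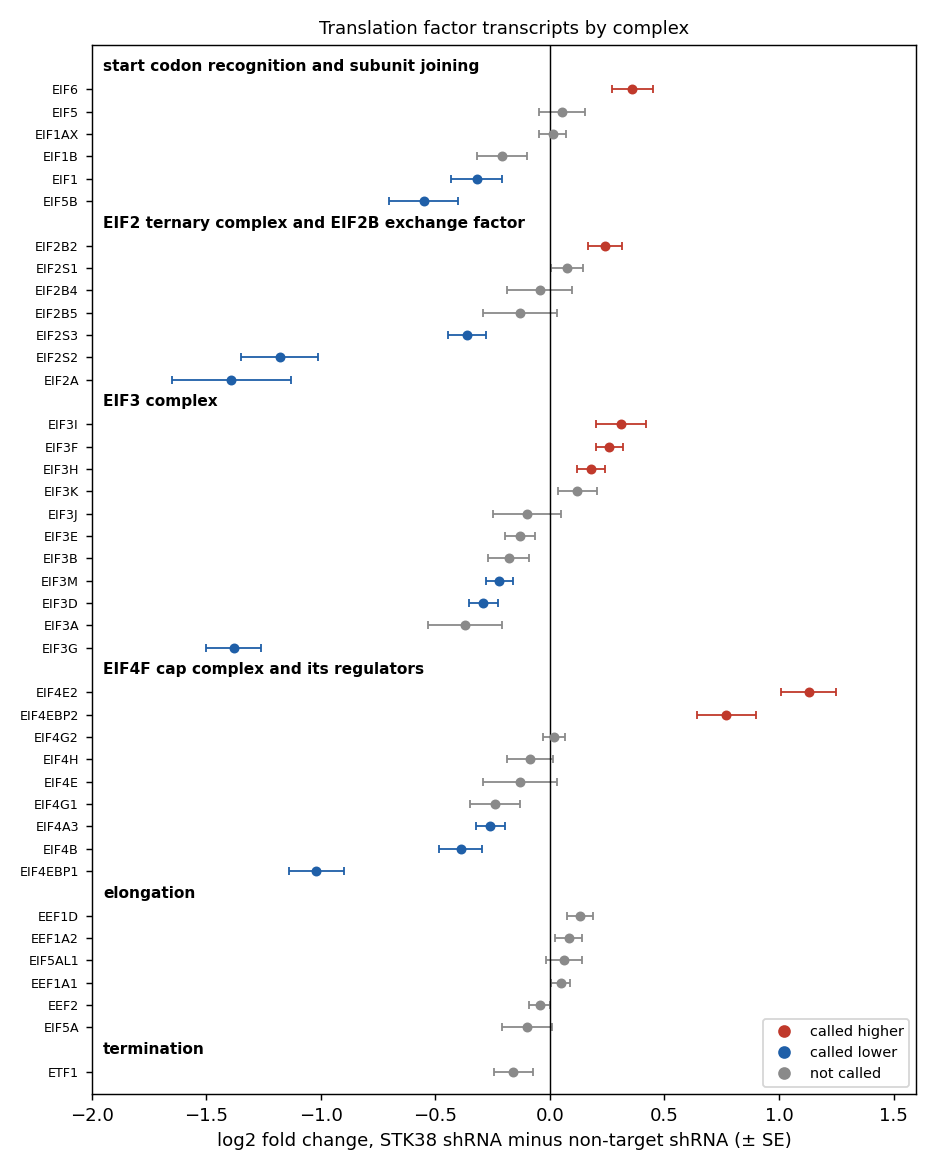
Log2 fold change (x axis, STK38 shRNA minus non-target shRNA) of the 40 tested factors, grouped by complex, with bars for the standard error; red marks genes called higher, blue genes called lower and grey those not called (limma adjusted p of 0.05). Each initiation group holds genes on both sides of 0, with EIF4E2 farthest to the right at 1.13 and EIF2A farthest to the left at -1.39, and the elongation factors sit between -0.10 and 0.13.

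**Figure D2:**
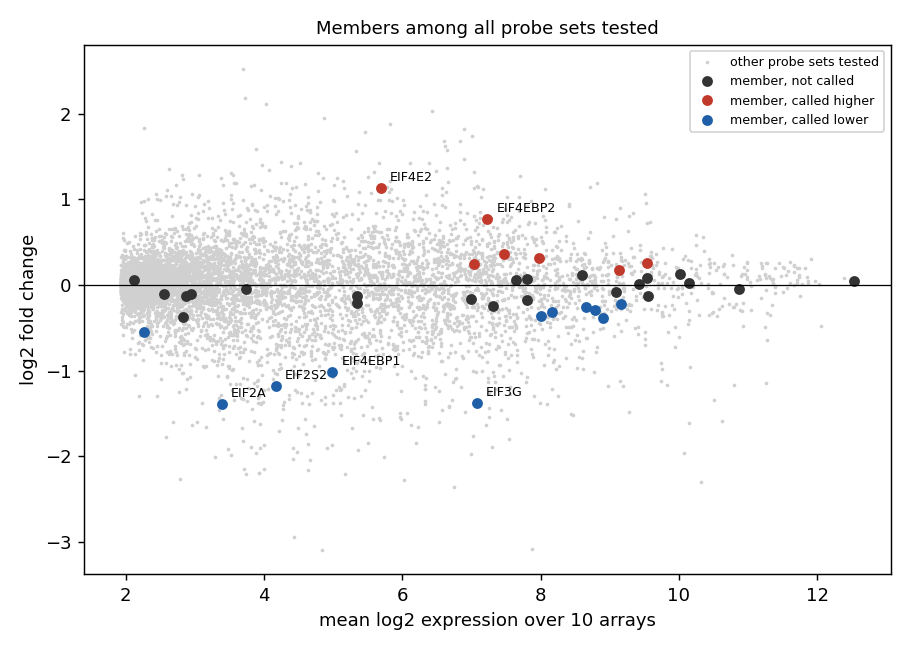
Log2 fold change (y axis) against the mean log2 expression over 10 arrays (x axis) for the tested factors (large points, coloured by call) and all other probe sets tested (small grey points). The factors spread over the whole range of levels, 27 of the 40 lie at 7 or more, and the 6 that are named changed by at least 1.5-fold.

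Canonical MYC binding sites hold the letters CACGTG, the E-box, which reads the same on both strands. RefSeq promoters of GRCh38.p14 were found for 34 of the 43 genes. Of these 34, 8 (23.5%) hold a CACGTG in the 250 bases before a transcript start, where 7.73% of all 27305 genes with a promoter do. The shares were not tested against each other and the genes were not matched in any way, so no excess is read from them. The 8 are EIF1B, EIF3F, EIF3K, EIF4A3, EIF4B, EIF4E, EIF4G1 and EIF4H. At their main probe set 3 of these 8 were called, EIF3F higher and EIF4A3 and EIF4B lower. Of all factors tested 45.0% were called, and of all genes 31.0%, so nothing is read from this count. The upstream windows of EIF3F, EIF4A3 and EIF4B are shown to set the matching letters beside these opposite changes, with CACGTG in capitals, 5′ to 3′. A match of letters is a description and not a measured binding site. The window of EIF3F (chr11:7987087-7987336, plus strand) holds 1 such match that starts 68 bases before the transcript start, that of EIF4A3 (chr17:80147129-80147378, minus strand) 1 that starts 121 bases before it, and that of EIF4B (chr12:53006206-53006455, plus strand) 1 that starts 22 bases before it.
EIF3F: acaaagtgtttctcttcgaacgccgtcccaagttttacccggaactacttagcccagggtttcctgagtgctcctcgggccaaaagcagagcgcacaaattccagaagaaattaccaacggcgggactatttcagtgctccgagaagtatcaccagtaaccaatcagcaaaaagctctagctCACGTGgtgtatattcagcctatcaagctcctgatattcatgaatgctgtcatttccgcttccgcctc
EIF4A3: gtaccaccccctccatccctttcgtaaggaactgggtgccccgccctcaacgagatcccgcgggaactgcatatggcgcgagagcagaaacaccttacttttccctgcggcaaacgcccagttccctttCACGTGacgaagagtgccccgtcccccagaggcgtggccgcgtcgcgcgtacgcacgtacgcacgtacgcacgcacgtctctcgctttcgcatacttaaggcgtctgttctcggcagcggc
EIF4B: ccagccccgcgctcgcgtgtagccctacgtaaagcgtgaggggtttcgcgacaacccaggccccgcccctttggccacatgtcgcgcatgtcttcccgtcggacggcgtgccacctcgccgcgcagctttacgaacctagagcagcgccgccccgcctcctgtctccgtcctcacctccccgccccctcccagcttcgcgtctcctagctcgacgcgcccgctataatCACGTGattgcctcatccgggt
The letters TGATGCAA, a core of sites bound by the stress factor ATF4, or their reverse complement were in none of the 34 and in 0.967% of all genes searched in the same way.

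Among the factors that choose the start codon and join the subunits, EIF6 rose, EIF1 and EIF5B fell, and EIF1AX, EIF1B and EIF5 were not called at their brightest probe set; the seventh, EIF1AY, lies on the Y chromosome, was not tested and is not described. EIF6 keeps free large subunits from joining small ones too early. Its log2 values were 7.39, 7.18, 7.41, 7.31 and 7.18 on non-target replicates 1 to 5 and 7.51, 7.72, 7.85, 7.65 and 7.53 on STK38 shRNA replicates 1 to 5. The groups did not overlap, and EIF6 was 1.28-fold higher with the STK38 shRNA (log2 difference 0.36, standard error 0.088, adjusted p = 0.00664 by limma). EIF1, which keeps the scanning ribosome from starting at a wrong codon, read 8.42, 8.01, 8.15, 8.39 and 8.66 on the non-target arrays and 8.13, 8.06, 7.98, 7.78 and 8.06 on the STK38 shRNA arrays. The groups overlapped, since non-target replicate 2 lay below STK38 shRNA replicates 1, 2 and 5. EIF1 was called lower (log2 difference -0.32, standard error 0.11, adjusted p = 0.0411 by limma), but leaving out any one of 7 arrays ended the call: the adjusted p was 0.0596, 0.0762, 0.0631 and 0.0593 without STK38 shRNA replicates 2, 3, 4 and 5, and 0.0932, 0.0908 and 0.1 without non-target replicates 1, 4 and 5. Centring each array on its median (adjusted p = 0.0508), quantile normalization (0.0813), array weights (0.0669), no filter (0.0661) and no variance trend (0.0656) ended it too.

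EIF5B, the GTPase that joins the large subunit, was dim. Its brightest probe set read 2.08, 2.74, 2.69, 2.79 and 2.40 on the non-target arrays and 2.12, 2.22, 1.85, 1.58 and 2.18 on the STK38 shRNA arrays. It exceeded the array background, set at 2.36 to 2.66 from 23 control probe sets, on 3 non-target arrays and on 0 STK38 shRNA arrays, so its call as lower (limma adjusted p = 0.0119) is given as at least 1.06-fold. With a background that leaves out the human ACTB and GAPDH controls (17 remain, 1.89 to 2.18), an alternative chosen after seeing the data, it exceeded it on 3 STK38 shRNA and 4 non-target arrays. EIF1B, a close relative of EIF1, had a log2 fold change of -0.21 (standard error 0.11, adjusted p = 0.199). EIF1AX, which helps the small subunit scan, had one of 0.012 (standard error 0.059, adjusted p = 0.912), and EIF5, which makes EIF2 hydrolyse its GTP, one of 0.054 (standard error 0.10, adjusted p = 0.771); both had another probe set that was called lower, given with the other such cases below.

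EIF2, the carrier of the initiator tRNA, and its exchange factor EIF2B were represented by 8 genes with EIF2A, of which 7 were tested, 3 fell and 1 rose. Of all probe sets tested 15.8% fell and 14.1% rose, and a group of 7 is too small to set apart from that. EIF2S2, the beta subunit of EIF2, had log2 values of 4.62, 5.17, 4.39, 4.58 and 5.04 on the non-target arrays and 3.56, 3.83, 3.28, 3.82 and 3.44 on the STK38 shRNA arrays. Every STK38 shRNA array lay at least 0.56 below every control array. The fall was 2.26-fold (log2 difference -1.18, standard error 0.17, adjusted p = 8.75e-05 by limma) and was as large without STK38 shRNA replicate 4 (-1.23). EIF2S3, the gamma subunit that holds GTP and the tRNA, read 8.06, 8.14, 8.27, 8.16 and 8.25 on the non-target arrays and 7.79, 7.97, 7.79, 7.60 and 7.94 on the STK38 shRNA arrays. Here too the groups did not overlap, although the fall was smaller, 1.28-fold (log2 difference -0.36, standard error 0.083, adjusted p = 0.00412 by limma), and a dimmer probe set gave -0.37 (adjusted p = 0.0117). EIF2S1, the alpha subunit that stress kinases phosphorylate, had, where it was brightest, a log2 fold change of 0.075 (standard error 0.07, adjusted p = 0.496). Its dimmer probe set was called lower (-0.36, adjusted p = 0.0206 by limma), so EIF2S1 cannot be taken as unchanged. The difference in response between EIF2S1 and EIF2S2, at the brightest probe set of each, was itself tested on the difference of their log2 values within each array. That difference was 4.25 ± 0.30 with the STK38 shRNA against 3.00 ± 0.28 in the controls (SD, n = 5 each). It was higher on all 5 STK38 shRNA arrays than on any control array. The two-sided exact permutation p was 0.00794, the smallest 5 against 5 arrays allow, or 0.0139 adjusted over the 7 pairs of genes compared. EIF2S2 alone already separated the groups by 0.56, and EIF2S1 stayed within 7.68 to 7.96 on all arrays. This p could thus only be the smallest possible and adds nothing to the call of EIF2S2.

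EIF2A, which is no subunit of EIF2 and can bring the initiator tRNA by another route, had the largest log2 change of the set. Its values were 3.38, 4.26, 4.17, 4.43 and 4.18 on the non-target arrays and 2.74, 3.37, 2.43, 1.85 and 3.09 on the STK38 shRNA arrays. The gap between the groups was 0.0075, between non-target replicate 1 and STK38 shRNA replicate 2, and the STK38 shRNA arrays spread widely. EIF2A fell 2.62-fold (log2 difference -1.39, standard error 0.26, adjusted p = 0.000796 by limma), with 4 of the 5 STK38 shRNA arrays above background and replicate 4 below it; without that array the log2 fold change was -1.18 (adjusted p = 0.000167). The name of its probe set marks it as one whose probes several transcripts share. Of the EIF2B subunits, EIF2B2, the beta subunit, read 6.94, 6.91, 6.96, 6.95 and 6.82 on the non-target arrays and 7.15, 7.19, 7.16, 7.15 and 7.15 on the STK38 shRNA arrays. The spread among the STK38 shRNA arrays was small (SD 0.019) and all lay above the controls, a rise of 1.18-fold (log2 difference 0.24, standard error 0.074, adjusted p = 0.0202 by limma), which missed the threshold when no filter on low values was applied (adjusted p = 0.0517). EIF2B4, a regulatory subunit, had a log2 fold change of -0.045 (standard error 0.14, adjusted p = 0.867) and EIF2B5, the catalytic subunit, one of -0.13 (standard error 0.16, adjusted p = 0.637). EIF2B1, the alpha subunit, was not above background on any array and was not tested.

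**Figure D3:**
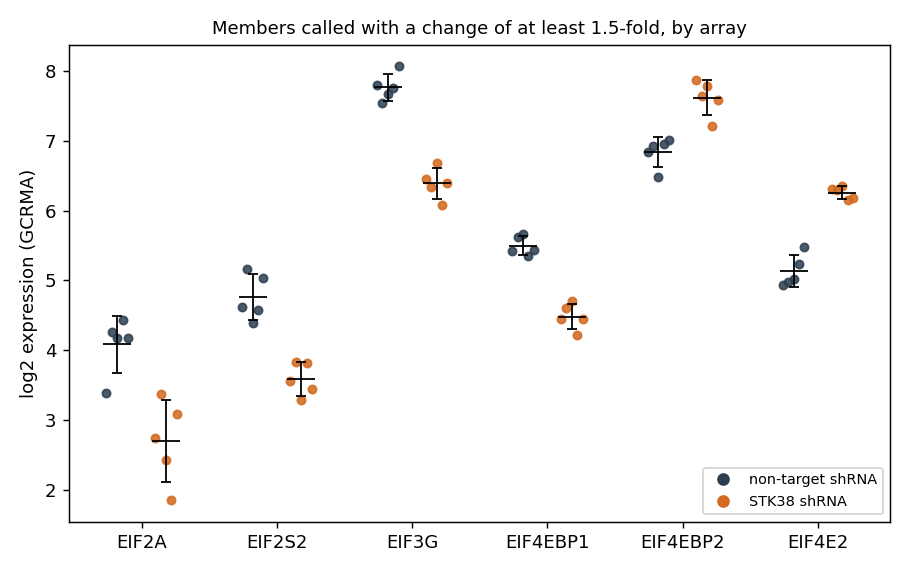
Log2 expression (y axis) on each array of the 6 factors called with a change of at least 1.5-fold; dark points are the 5 non-target shRNA arrays, orange points the 5 STK38 shRNA arrays, and the bar and whiskers give the mean and SD. For each gene the groups are apart, most narrowly for EIF2A (3.37 against 3.38) and most widely for EIF3G.

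EIF3, the large scaffold of initiation, was the best covered complex, with 11 subunits tested, 3 higher and 3 lower, and a median log2 fold change of -0.13. Most of its probe sets are bright, and at a mean log2 level of 7 or more 55.5% of all probe sets were called. Calls in both directions were common among all probe sets tested too, 14.1% higher and 15.8% lower. One subunit stood far from the rest. EIF3G, which carries an RNA-binding domain, had log2 values of 7.80, 7.54, 7.68, 7.76 and 8.07 on the non-target arrays and 6.46, 6.34, 6.69, 6.08 and 6.39 on the STK38 shRNA arrays. A gap of 0.86 separated the groups, and EIF3G fell 2.6-fold (log2 difference -1.38, standard error 0.12, adjusted p = 9.03e-07 by limma), the lowest p of the set. The other 10 subunits lay between -0.37 and 0.31 on the log2 scale.

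EIF3D and EIF3M fell by less. EIF3D, a subunit that can bind the cap of some mRNAs, read 8.99, 8.81, 8.90, 8.89 and 9.07 on the non-target arrays and 8.71, 8.60, 8.59, 8.61 and 8.69 on the STK38 shRNA arrays, with no overlap. It was 1.23-fold lower (log2 difference -0.29, standard error 0.065, adjusted p = 0.00287 by limma). EIF3M, a subunit with the PCI fold from which the body of EIF3 is built, read 9.26, 9.20, 9.30, 9.27 and 9.34 on the non-target arrays and 9.14, 9.09, 8.94, 9.01 and 9.08 on the STK38 shRNA arrays. These groups did not overlap either, and EIF3M was 1.17-fold lower (log2 difference -0.22, standard error 0.057, adjusted p = 0.00817 by limma).

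EIF3F, one of the subunits with the MPN fold and the gene whose upstream window is printed above, moved the other way. It read 9.50, 9.24, 9.42, 9.37 and 9.50 on the non-target arrays and 9.70, 9.61, 9.60, 9.70 and 9.72 on the STK38 shRNA arrays. All STK38 shRNA arrays lay above all controls, a rise of 1.2-fold (log2 difference 0.26, standard error 0.06, adjusted p = 0.00386 by limma). EIF3H, the other MPN subunit, read 9.16, 9.08, 9.09, 8.87 and 9.08 on the non-target arrays and 9.19, 9.23, 9.20, 9.28 and 9.27 on the STK38 shRNA arrays. The groups were 0.036 apart and EIF3H was called 1.13-fold higher (log2 difference 0.18, standard error 0.062, adjusted p = 0.0416 by limma), but the call held only without non-target replicate 1 or 5: with each of the other 8 arrays left out the adjusted p ran from 0.055 (STK38 shRNA replicate 3) to 0.117 (non-target replicate 4, the lowest control), and it was 0.0754 without STK38 shRNA replicate 4. Centring of the arrays (0.0587), no filter (0.0644), no variance trend (0.106) and the replicate block (0.0716) ended the call as well. EIF3I, a subunit with WD repeats, read 7.75, 7.78, 8.07, 8.02 and 7.47 on the non-target arrays and 8.12, 8.20, 8.22, 7.96 and 8.17 on the STK38 shRNA arrays. The groups overlapped, since non-target replicates 3 and 4 lay above STK38 shRNA replicate 4. EIF3I was called 1.24-fold higher (log2 difference 0.31, standard error 0.11, adjusted p = 0.0354 by limma), yet was not called when STK38 shRNA replicate 1, 2, 3 or 5 or non-target replicate 1, 2 or 5 was left out (adjusted p of 0.0619 to 0.0790). Centring of the arrays (0.0697), no filter (0.059) and no variance trend (0.0555) ended it too, and its other probe set gave 0.26 (adjusted p = 0.0513).

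The remaining EIF3 subunits did not pass the test. EIF3A, the largest subunit, was dim and had a log2 fold change of -0.37 (standard error 0.16, adjusted p = 0.114), and EIF3B had one of -0.18 (standard error 0.09, adjusted p = 0.156). EIF3E had -0.13 (standard error 0.066, adjusted p = 0.169) and EIF3K 0.12 (standard error 0.086, adjusted p = 0.358). EIF3J, which sits loosely on the complex, exceeded background on 3 arrays of each group and had -0.10 (standard error 0.15, adjusted p = 0.694). The subunits of 1 complex thus differed in sign among those called: EIF3G, EIF3D and EIF3M fell, and EIF3F rose, with EIF3H and EIF3I less firmly so.

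**Figure D4:**
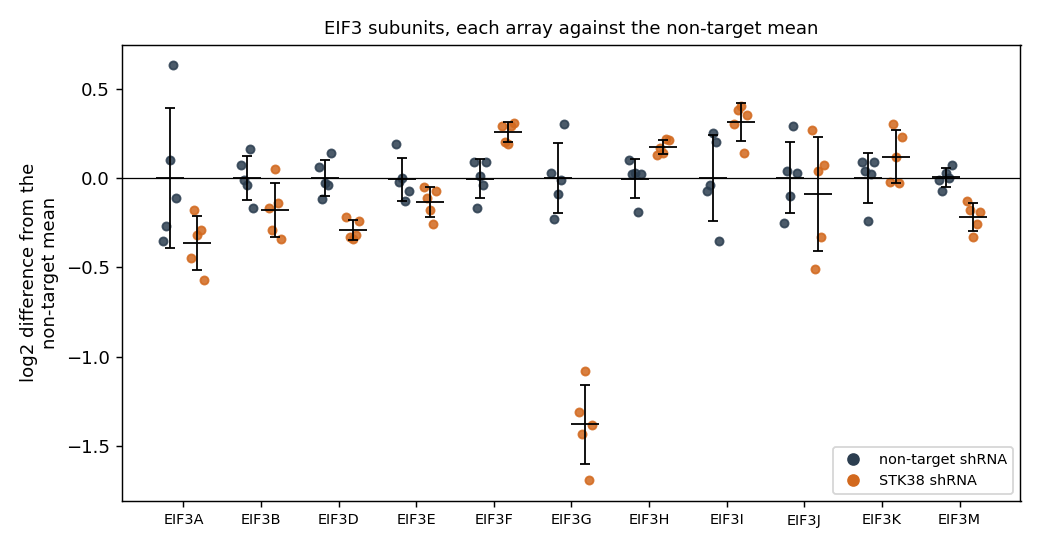
Difference of each array from the non-target mean (y axis, log2) for the 11 tested EIF3 subunits; dark points are non-target shRNA arrays, orange points STK38 shRNA arrays, and the bar and whiskers give the mean and SD of each group. The STK38 shRNA arrays of EIF3G lie more than 1 below the control mean, and all other subunits have means within 0.37 of it.

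At the cap, the genes that hold EIF4E in check changed in opposite directions, while EIF4E itself was near background. EIF4EBP1, the EIF4E-binding protein that mTOR releases by phosphorylation, had log2 values of 5.42, 5.62, 5.66, 5.35 and 5.43 on the non-target arrays and 4.44, 4.60, 4.70, 4.22 and 4.44 on the STK38 shRNA arrays. Every STK38 shRNA array lay at least 0.65 below every control, and EIF4EBP1 fell 2.02-fold (log2 difference -1.02, standard error 0.12, adjusted p = 1.56e-05 by limma). EIF4EBP2, its relative with the same role, read 6.84, 6.93, 6.48, 6.95 and 7.02 on the non-target arrays and 7.87, 7.64, 7.79, 7.21 and 7.59 on the STK38 shRNA arrays. These lay above all controls, least so on replicate 4, and EIF4EBP2 rose 1.71-fold (log2 difference 0.77, standard error 0.13, adjusted p = 0.000325 by limma). The difference between the log2 values of EIF4EBP1 and EIF4EBP2 within an array was -3.14 ± 0.17 with the STK38 shRNA against -1.35 ± 0.32 in the controls (SD, n = 5 each), a shift of -1.79 (exact permutation p = 0.00794, adjusted p = 0.0139) that was -1.83 without STK38 shRNA replicate 4. Each gene alone already separated the groups, in opposite directions, so this p could only be the smallest possible. It adds nothing to the calls of the genes themselves. Levels of different probe sets are not comparable, so the shift shows unequal change and not which protein is more abundant. EIF4EBP1 is read by a probe set that its name marks as chosen with relaxed design rules.

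EIF4E2, also called 4EHP, binds the cap without binding EIF4G and thereby represses translation. It had the largest rise of the set. Its values were 4.93, 4.98, 5.02, 5.24 and 5.48 on the non-target arrays and 6.31, 6.30, 6.36, 6.15 and 6.18 on the STK38 shRNA arrays. A gap of 0.66 separated the groups, and EIF4E2 rose 2.18-fold (log2 difference 1.13, standard error 0.12, adjusted p = 5.51e-06 by limma). EIF4E, the cap-binding protein of EIF4F, read 2.77, 3.29, 2.88, 3.02 and 2.78 on the non-target arrays and 2.64, 3.00, 2.68, 2.49 and 3.28 on the STK38 shRNA arrays. The groups overlapped almost wholly, 4 STK38 shRNA arrays and 5 controls were above background, and EIF4E was not called (log2 difference -0.13, standard error 0.16, adjusted p = 0.603 by limma); a value so near background leaves little room to see a fall. The log2 difference between EIF4E and EIF4E2 shifted by -1.26 (exact permutation p = 0.00794, adjusted p = 0.0139). EIF4E2 alone already separated the groups by 0.66, so this p adds little to the call of EIF4E2. How EIF4E responded is not read from it, since EIF4E was near background. EIF4E and EIF4EBP1 were also among the 7 pairs, but with EIF4E so close to background nothing is read from a smaller fall of it.

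Of the scaffold and helicase genes, EIF4A3 and EIF4B fell. EIF4A3, a helicase of the EIF4A family that marks exon junctions, read 8.76, 8.70, 8.78, 8.83 and 8.90 on the non-target arrays and 8.47, 8.64, 8.48, 8.52 and 8.55 on the STK38 shRNA arrays. No array overlapped the other group, and EIF4A3 was 1.2-fold lower (log2 difference -0.26, standard error 0.062, adjusted p = 0.00498 by limma). EIF4B, which stimulates the EIF4A helicase, read 9.04, 9.25, 9.30, 9.14 and 8.75 on the non-target arrays and 8.59, 8.74, 8.80, 8.66 and 8.71 on the STK38 shRNA arrays. Non-target replicate 5 lay within the STK38 shRNA range and the other 4 controls above it; EIF4B was 1.31-fold lower (log2 difference -0.39, standard error 0.092, adjusted p = 0.00454 by limma). Both carry the CACGTG shown above. EIF4H, a smaller cofactor with the same role as EIF4B, had a log2 fold change of -0.087 (standard error 0.10, adjusted p = 0.597). Like that of EIF4EBP1, its probe set is marked by its name as chosen with relaxed design rules. The difference between the responses of EIF4B and EIF4H was -0.31 (exact permutation p = 0.0952, adjusted p = 0.12), or -0.43 (adjusted p = 0.0111) without STK38 shRNA replicate 3.

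EIF4G1, the scaffold that joins EIF4E to the helicase, read 7.60, 7.43, 7.50, 7.47 and 7.15 on the non-target arrays and 6.93, 7.39, 7.43, 7.04 and 7.15 on the STK38 shRNA arrays at its brightest probe set. The groups overlapped and the gene was not called there (log2 difference -0.24, standard error 0.11, adjusted p = 0.139 by limma), except without non-target replicate 5 (adjusted p = 0.0495) and with array weights (0.0456). Its other probe set was 7.08 ± 0.12 with the STK38 shRNA against 7.34 ± 0.11 in the controls (SD, n = 5 each) and was called lower (log2 fold change -0.25, SE 0.088, adjusted p = 0.0409). EIF4G2, a relative that lacks the EIF4E site, had 0.019 (standard error 0.048, adjusted p = 0.831). The responses of EIF4G1 and EIF4G2 were not shown to differ (-0.26, exact permutation p = 0.103, adjusted p = 0.12).

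None of the 6 genes tested in the elongation group was called by limma. Of all probe sets tested 29.9% were called, and 55.5% of those at a mean log2 level of 7 or more. The 6 ran from EEF1A1, the brightest gene of the set, to EIF5AL1, which was not above background. EEF1A1 reached 12.65, the top of the range of all values, EEF1A2 was read by a family-shared probe set and EIF5A was dim. The count thus says little about elongation as a group. Of the 6, 1, EEF1D, had an unadjusted p under 0.05, and the same 1 had an exact permutation p under 0.05. EEF1A1, which delivers aminoacyl-tRNA, read 12.53, 12.53, 12.54, 12.58 and 12.37 on the non-target arrays and 12.65, 12.52, 12.58, 12.56 and 12.48 on the STK38 shRNA arrays. The groups overlapped, with a log2 fold change of 0.048 (standard error 0.041, adjusted p = 0.453), and its other probe sets gave 0.023 and 0.0048. EEF2, which moves the ribosome by 1 codon, read 10.99, 10.81, 10.80, 10.90 and 10.93 on the non-target arrays and 10.86, 10.77, 10.88, 10.88 and 10.82 on the STK38 shRNA arrays. Here too the groups overlapped (log2 difference -0.045, standard error 0.046, adjusted p = 0.542 by limma). EEF1D, part of the exchange factor of EEF1A, read 10.03 and 10.02 on non-target replicates 1 and 3, 9.91 and 9.80 on replicates 4 and 5 and a value between these pairs on replicate 2, and 10.07, 10.19, 10.06, 10.02 and 10.07 on the STK38 shRNA arrays. Only STK38 shRNA replicate 4 fell within the control range, and EEF1D was not called (log2 difference 0.13, standard error 0.056, adjusted p = 0.093 by limma) except after quantile normalization (0.22, adjusted p = 0.00317).

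EEF1A2, the form of EEF1A found in muscle and nerve, had a log2 fold change of 0.082 (standard error 0.059, adjusted p = 0.354) at a probe set that its name marks as shared by a gene family, with a mean level of 9.58 with the STK38 shRNA and 9.50 in the controls. Its other probe set read 1.73 and 1.66 and was not above background on any array. The difference between EEF1A1 and EEF1A2 was not shown to shift (-0.034, exact permutation p = 0.698). A probe set shared by a gene family may also read EEF1A1, so this test cannot tell the responses of the genes apart. EIF5A, which helps the ribosome through difficult peptide bonds, had -0.10 (standard error 0.11, adjusted p = 0.569) at a mean level of 2.90 with the STK38 shRNA and 3.00 in the controls, little above background. EIF5AL1, an intronless relative of EIF5A, was not above background on any array (log2 difference 0.061, standard error 0.077, adjusted p = 0.626 by limma), and EEF1AKMT3 was neither above background nor tested. ETF1, the release factor that recognises stop codons, read 7.22, 6.97, 7.16, 7.11 and 6.96 on the non-target arrays and 6.89, 6.92, 7.05, 6.88 and 6.88 on the STK38 shRNA arrays. The groups overlapped and ETF1 was not called (log2 difference -0.16, standard error 0.085, adjusted p = 0.187 by limma; 0 of 1 at an unadjusted p under 0.05).

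For 9 of the 43 genes the array carries several probe sets, and for 3 of them these disagreed. EIF1AX was at 9.42 ± 0.088 with the STK38 shRNA and 9.41 ± 0.070 in the controls at its brightest probe set, while its dimmest fell from 4.90 ± 0.18 to 4.02 ± 0.46 (a difference of -0.88, SE 0.19, adjusted p = 0.00262). EIF5 was at 7.68 ± 0.22 and 7.63 ± 0.12 at the brighter probe set and fell from 7.09 ± 0.084 to 6.53 ± 0.19 at the other (log2 fold change -0.56, adjusted p = 0.00060). EIF2S1 was at 7.84 ± 0.072 and 7.76 ± 0.059 at the brighter one and fell from 6.38 ± 0.13 to 6.02 ± 0.18 at the other (-0.36, adjusted p = 0.0206; SD, n = 5 each throughout). In each case the groups did not overlap at the probe set that fell and overlapped at the brighter ones. Which transcript form each probe set reads is not given in the sources used here. Probe sets agreed in sign and size for EIF2S3, EIF3I and EIF4G1, and for EEF1A1 none was called. The dimmer probe sets of EEF1A2 and EIF5B were not tested.

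**Figure D5:**
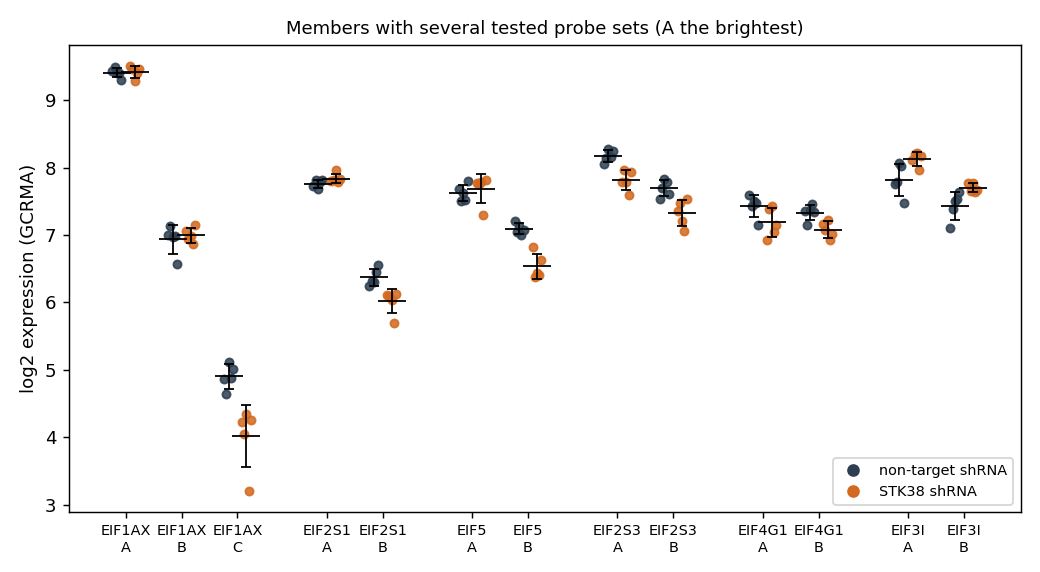
Log2 expression (y axis) on each array for 6 of the 7 factors with several tested probe sets (EEF1A1 is not drawn), ordered from the brightest (A); dark points are non-target shRNA arrays, orange points STK38 shRNA arrays, and the bar and whiskers give the mean and SD. The third probe set of EIF1AX, EIF2S1 B and EIF5 B are lower with the STK38 shRNA while the brighter probe sets of these genes overlap between the groups.

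The proteins that work with these factors were described from lists compiled by hand. Of 41 partners and regulators listed, 28 were tested, 6 rose and 2 fell, with a median log2 fold change of 0.0043. The 28.6% called is near the 29.9% of all probe sets tested. Besides those named next, RPS6KB2 (0.54), PPP1R15A (0.51), PABPC1 (0.25) and RPS6 (0.20) were called higher. TSC1 and TSC2, which together restrain mTOR, rose 1.75-fold (log2 difference 0.80, SE 0.18, adjusted p = 0.00316) and 1.42-fold (adjusted p = 0.0163). CYFIP1, which binds EIF4E in place of EIF4G, fell 2.14-fold (log2 difference -1.09, SE 0.18, adjusted p = 0.000265), with 3 of the 5 STK38 shRNA arrays above background. DHPS, the first of the enzymes that build hypusine on EIF5A, fell 1.59-fold (log2 difference -0.67, SE 0.088, adjusted p = 3.96e-05). MTOR had a log2 fold change of 0.038 (adjusted p = 0.853) and EIF2AK2, a kinase of EIF2S1, one of -0.0082 (adjusted p = 0.971).

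Several mRNAs of the elongation machinery begin with a pyrimidine tract that makes their translation depend on mTOR. Of 7 other mRNAs of that kind, 1 rose and 3 fell, with a median of 0.0041. All 7 have a mean log2 level of 7 or more, and the 57.1% called is near the 55.5% of all probe sets at that level. VIM, an intermediate filament protein, fell 2.80-fold (adjusted p = 1.25e-09), NAP1L1 1.24-fold (adjusted p = 0.00317) and NPM1 1.23-fold (adjusted p = 0.000143), and PABPC1, the poly(A)-binding protein, rose 1.19-fold (adjusted p = 0.00935). Of 10 mitochondrial translation factors listed, 3 were tested, MTIF2, TUFM and TSFM. None was called by limma and 0 had an unadjusted p under 0.05, with a median log2 fold change of 0.12. Of all probe sets tested 29.9% were called, so a count over 3 genes says little.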

How the data were processed

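Total RNA was hybridised to 1-colour Affymetrix HG-U95Av2 arrays. The authors deposited 1 log2 value per probe set and array. Per the submitters' processing notes the tools were GCRMA and affy, versions not given in the sources used here; that the scale is log2 was inferred from the range of the values and from GCRMA. GCRMA shrinks differences of dim probe sets. Of 12625 probe sets, 67 controls were left out. Gene names come from the annotation of the platform, brought up to date by gene ID with RefSeq (GRCh38.p14); promoter sequences are from RefSeq of that assembly.

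Probe sets with a mean under the 40th percentile (1.93) were left out, and the rest fitted in R 4.3.3 with limma 3.58.1 (lmFit; eBayes with trend; 8 residual degrees of freedom and no covariates), adjusting by Benjamini-Hochberg over all 7535; every adjusted p is from this fit unless named as exact permutation. A fold is the linear ratio of a log2 difference. The background of an array is the 90th percentile of 23 mouse, yeast and reverse-strand controls. The fit was tested on simulated data. Members, lists and tests were chosen with earlier results of these data known. Values on all arrays are given for called genes, the largest change of each complex, and EIF4E, EIF4G1, EEF1A1 and EEF2; up to 4 called genes are named per list, with the other called partners, MTOR, EIF2AK2, the mitochondrial factors and the markers named chosen after their values were seen. No batch is given in the labels.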

Additional observations from a re-analysis of the deposited data

Results flagged for a closer look

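In 8 of 80 groups of 5 arrays (each tested factor in each group), 1 array lay far from the other 4 by Dixon's criterion, which chance meets in about 1 of 20 groups. STK38 shRNA replicate 4 was low for EIF5 (7.30, the others 7.75 to 7.82) and EIF2B4 (3.28, the others 3.78 to 3.93). STK38 shRNA replicate 3 was high for EIF2S1 (7.96, the others 7.78 to 7.83) and ETF1 (7.05, the others 6.88 to 6.92). Among the controls, EIF2A was low on replicate 1 (3.38, the others 4.17 to 4.43), EIF3K on replicate 3 (8.30, the others 8.56 to 8.63), EIF3H on replicate 4 (8.87, the others 9.08 to 9.16) and EEF1A1 on replicate 5 (12.37, the others 12.53 to 12.58). Of these genes EIF2A and EIF3H were called; EIF2A kept its call without that array and EIF3H did not.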

How the results depend on the processing

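Over 20 alternatives, 13 of the 18 called factors kept direction and call, and EIF3H, EIF3I, EIF1, EIF2B2 and EIF5B lost the call under at least 1. At a threshold of 0.01, 1494 probe sets were called, 4 factors higher and 3 partner genes higher; without a filter 4 factors were called higher. EIF1AX reversed to -0.27 with the mean of all its probe sets, and EIF5 to -0.25, and to -0.56 with the probe set of smallest residual variance, where EIF4G1 minus EIF4G2 was called at -0.27. EIF3A and EIF3B were called lower only with array weights (-0.49 and -0.23). With single arrays left out, 5 to 6 factors were called higher and 10 to 11 lower, EIF4B minus EIF4H ran from -0.43 to -0.23, and calls among all probe sets from 1938 to 2836.

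Equal replicate numbers do not pair the arrays: correlations of same-numbered deviations ran from -0.21 to 0.19, and 1 of 5 STK38 shRNA arrays correlated best with its own number. With the replicate block 6 factors were higher and 11 lower, and EIF3H lost its call. Within replicate numbers the pair differences -1.79, 0.89, -1.26 and 1.25 had an exact permutation adjusted p of 0.0875, where 5 pairs allow no p under 0.0625. The differences 0.89 (EIF4E minus EIF4EBP1) and -1.26 (EIF4E minus EIF4E2) are limited by the low signal of EIF4E. Dim probe sets (EIF4E, EIF5A, EIF3A, EIF5B) limit what can be seen of those genes.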
